A study of Homo sapiens with 42 samples.

Results

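The 36 genes described here belong to the amino acid response and the unfolded protein response. They were set as a list of named genes and not by a cut on their values, but with earlier results of these data known. Of these, 21 are targets of the transcription factor ATF4 and 15 encode chaperones, folding enzymes and other proteins of the endoplasmic reticulum (ER). All 36 were measured among 18417 genes, each by the probe set with 1 gene symbol that had the highest mean over the 42 arrays, and 34 of them were expressed highly enough to be called. The transcription factor gene ATF3 and the stress gene NUPR1 were the exceptions, and their values are given without a call.

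When amino acids run short, when unfolded proteins build up in the ER or when heme is lacking, kinases phosphorylate the translation factor eIF2α, which slows protein synthesis but favors translation of ATF4. ATF4, usually paired with a C/EBP protein, then switches on genes for amino acid synthesis, amino acid uptake, tRNA charging and growth restraint. In parallel, the ER sensor ATF6, and the ER sensor IRE1 through splicing of XBP1 mRNA, switch on the chaperones and folding enzymes of the ER, so that both lists can move together or apart.

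HL-60, a line from a human acute myeloid leukemia, gave the RNA for 42 arrays (Affymetrix Human Gene 1.0 ST) in 14 groups of 3. In the knockdown experiment, cells carried 1 of 2 hairpins against the H3K27 methyltransferase gene EZH2 (shEZH2#1 or shEZH2#2), carried the non-targeting hairpin Scr, or were labelled wild type (WT) and taken as untransduced. Each was grown with 0.1 µM all-trans retinoic acid (ATRA, which drives myeloid cells to mature) for 3 days or without it. In the inhibitor experiment, cells received 2.5 µM HKMTI-1-005, 10 µM GSK343 or no inhibitor (untreated), each for 3 days with or without 0.1 µM ATRA. HKMTI-1-005 inhibits EZH2 and the H3K9 methyltransferases EHMT2 and EHMT1, and GSK343 inhibits EZH2. The labels name no vehicle. The hairpins came on a lentiviral vector, and transduced cells were selected in puromycin and then left to recover and expand, which WT cells, as a control without a vector, do not match. The labels give the replicates by number only, the paper names them biological triplicates, and p-values measure the spread between these arrays. In bulk RNA, fewer cells of a kind and less RNA per cell cannot be told apart.

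All values are log2 expression levels as the authors normalized them, and a difference between groups is a log2 fold change. EZH2 mRNA was 8.76 to 9.64 on the 12 shEZH2 arrays and 9.93 to 10.44 on the 6 Scr arrays. It was 9.81 to 10.34 in WT cells and 9.78 to 10.33 in WT+ATRA cells. In the inhibitor experiment it was 9.53 to 9.66 in untreated cells, which overlapped the shEZH2 range. The retinoic acid target DHRS3 was 4.01 higher with ATRA than in untreated cells. Of the myeloid markers, MPO (12.5 to 13.4), SPI1 (9.08 to 10.40) and PRTN3 (8.68 to 11.02) were high. ELANE (6.35 to 8.74) and AZU1 (5.82 to 8.34) were lower but passed the expression filter. Defining markers of T cells, B cells, red cells, platelets, epithelium and fibroblasts (CD3E, MS4A1, HBB, PPBP, EPCAM, COL1A1) were below that filter. In the knockdown experiment 6 of 24 arrays had a high median over all probe sets (5.47 to 5.56, against 5.31 to 5.44 on the other 18): Scr replicates 1 and 2, Scr+ATRA replicate 3, WT+ATRA replicate 3, shEZH2#1 replicate 1 and shEZH2#2 replicate 2. The mean level of the 21 ATF4 targets was 9.00 and 8.94 on Scr replicates 1 and 2 but 9.67 on Scr replicate 3, so that comparisons with Scr are given with and without that array.

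A gene was called, and is said below to have risen or fallen, at an adjusted p of 0.05 or less in 1 limma fit of all 14 groups, a fold of at least 1.3 and a mean in the top 40% of genes. Those 7367 genes are the base of every background percentage. Counts of members at an unadjusted p under 0.05 use neither the fold nor the expression threshold. The percentages of called genes are therefore no background for those counts.

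ATRA lowered ATF4 targets in cells with an EZH2 hairpin. With both hairpins averaged, 11 of the 21 ATF4 targets fell in both shEZH2+ATRA groups against both shEZH2 groups (6 arrays against 6), where 6.35% of all genes fell. All 21 had a negative fold change, with a median of -0.51, whereas the median of all genes was -0.0045. Of the 15 ER genes, 1 rose and none fell, where 7.7% of all genes rose. Their median was 0.19, with 10 positive and 5 negative.

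CHAC1, DDIT4, TRIB3 and STC2 had the largest falls of the list. CHAC1 encodes an enzyme that degrades glutathione. Its level had a lowest, median and highest value of 6.50, 7.55 and 8.28 in shEZH2+ATRA cells, against 7.21, 9.01 and 9.94 in shEZH2 cells. The groups overlapped, and the fold change was -1.32 (SE 0.34, 2.50-fold lower, limma adjusted p = 0.0083). DDIT4, an inhibitor of the growth kinase mTORC1 that is also known as REDD1, had 7.26, 8.56 and 9.29 in shEZH2+ATRA cells, against 8.44, 9.91 and 10.29 in shEZH2 cells. It fell by 1.24 (SE 0.22, 2.36-fold lower, limma adjusted p = 0.00016), again with overlap. TRIB3, a pseudokinase that feeds back on ATF4, had 7.46, 7.70 and 8.22 in shEZH2+ATRA cells, against 8.18, 9.02 and 9.48 in shEZH2 cells. Its fold change was -1.23 (SE 0.22, 2.34-fold lower, limma adjusted p = 0.00011), and the overlap lay between shEZH2#2+ATRA replicate 3 at 8.22 and shEZH2#2 replicate 2 at 8.18. STC2, a secreted glycoprotein, had 5.97, 6.24 and 7.14 in shEZH2+ATRA cells, against 7.12, 7.39 and 7.79 in shEZH2 cells. Its fold change was -1.07 (SE 0.16, 2.10-fold lower, limma adjusted p = 6.7e-06), and shEZH2#2+ATRA replicate 3 at 7.14 was the 1 array with ATRA that reached the other group.

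**Figure D1:**
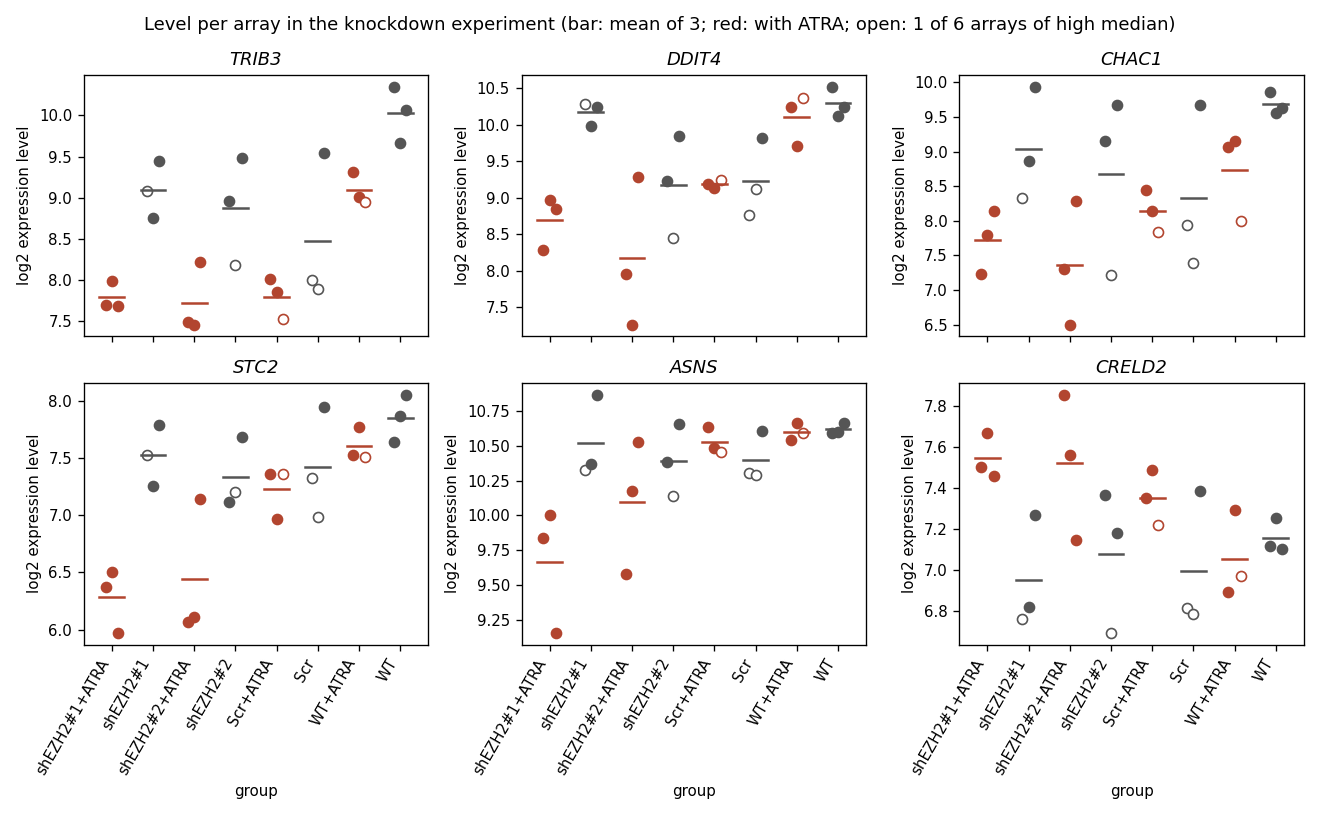
Log2 expression level of 6 genes (vertical axes) on each array of the 8 knockdown groups (horizontal axes), with a bar at the mean of 3 arrays, arrays with ATRA in red and the 6 arrays of high median as open circles. TRIB3 lay at 7.46 to 8.22 on the 6 shEZH2+ATRA arrays and at 8.18 to 9.48 on the 6 shEZH2 arrays, CRELD2 was the 1 gene of the 6 that was higher with ATRA in shEZH2 cells, and Scr replicate 3 stood above the other Scr arrays in each panel.

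Among the transcription factors, ATF5, CEBPG and DDIT3 fell. ATF5, a close relative of ATF4, had 9.49, 9.85 and 10.15 in shEZH2+ATRA cells, against 10.27, 10.55 and 10.72 in shEZH2 cells, with no overlap (fold change -0.67, SE 0.11, limma adjusted p = 6.0e-05). CEBPG, a C/EBP partner of ATF4, had 8.85, 9.20 and 9.31 in shEZH2+ATRA cells, against 9.32, 9.55 and 10.32 in shEZH2 cells, also without overlap (-0.52, SE 0.099, limma adjusted p = 0.00031). These were 2 of the 12 called genes whose groups did not overlap. DDIT3, which encodes the pro-apoptotic factor CHOP, was at -0.71 (limma adjusted p = 0.0038). ATF3, an early stress-induced factor, was at -0.49 (limma adjusted p = 0.00028) but below the expression filter, and NUPR1, also below it, was at -0.04.

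Genes of amino acid synthesis and uptake made up most of the rest. ASNS, asparagine synthetase, had 9.16, 9.92 and 10.53 in shEZH2+ATRA cells, against 10.14, 10.38 and 10.87 in shEZH2 cells, and fell by 0.58 (SE 0.12, limma adjusted p = 0.0011). PSAT1 of the serine pathway fell by 0.52 (adjusted p = 0.017), while PHGDH and PSPH of the same pathway were at -0.46 (adjusted p = 0.069) and -0.29 (adjusted p = 0.22) and were not called. MTHFD2, a mitochondrial enzyme of 1-carbon metabolism, was at -0.36 with an adjusted p of 0.00049, a fold of 1.28 that missed the threshold of 1.3. The light chain SLC7A5 and the heavy chain SLC3A2, which together form the leucine transporter LAT1, fell by 0.67 (limma adjusted p = 0.0038) and 0.38 (adjusted p = 0.0049). SLC7A11, the cystine transporter that also pairs with SLC3A2, was at -0.08 (95% interval -0.41 to 0.24). The arginine and lysine carrier SLC7A1, the 1-carbon enzyme SHMT2, the receptor VLDLR and the stress sensor SESN2 were at -0.51 to -0.24 and were not called.

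Leaving out 1 array at a time gave 10 to 17 called members. The calls of PSAT1 and SLC3A2 were the ones lost, PSAT1 without shEZH2#1+ATRA replicate 3, shEZH2#1 replicate 3, shEZH2#2+ATRA replicate 1 or shEZH2#2 replicate 3, and SLC3A2 without shEZH2#1+ATRA replicate 3, shEZH2#1 replicate 2, shEZH2#2+ATRA replicate 2, shEZH2#2 replicate 1 or shEZH2#2 replicate 3. With 1 fit per experiment the calls of CHAC1 (limma adjusted p = 0.063) and PSAT1 were lost, and with each array centred on its median those of PSAT1 and SLC3A2. Without the 6 arrays of high median, 16 members were called, among them 10 of the 12, and the calls of CEBPG and CRELD2 were lost. The unpaired t-test of the study's general statistics (the methods' t-test) was also run with Benjamini-Hochberg adjustment. Of the 12 calls it kept only those of ATF5, STC2 and TRIB3.

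The windows from 250 bases before to 50 bases after each transcript start, taken from RefSeq (GRCh38.p14), were read for known response elements on both strands. A window was found for 32 of the 36 genes. The core of the composite element of ATF4 and C/EBP, TGATGNAA, was present in 6 of 17 ATF4 targets (35.3%), in 1 of 15 ER genes (6.67%) and in 4.46% of 27305 genes. The 6 were ATF3, CEBPG, CHAC1, ASNS, SLC3A2 and SLC7A1. The genes were listed as known ATF4 targets, so an excess over all genes can follow from that choice and is no result of these arrays. The windows of ASNS (chr7:97872359-97872658, minus strand), CHAC1 (chr15:40953221-40953520, plus strand) and CEBPG (chr19:33373863-33374162, plus strand) are shown for 3 of the 4 genes that fell and hold the core (SLC3A2 is the other), which is in capitals. In CHAC1 it reads on the opposite strand.
ASNS: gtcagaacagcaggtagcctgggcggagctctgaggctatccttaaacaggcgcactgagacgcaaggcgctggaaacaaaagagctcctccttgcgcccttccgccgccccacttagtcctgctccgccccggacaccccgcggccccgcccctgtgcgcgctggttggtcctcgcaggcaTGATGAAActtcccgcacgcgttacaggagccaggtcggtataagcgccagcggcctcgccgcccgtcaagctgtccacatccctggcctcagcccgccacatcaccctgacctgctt
CHAC1: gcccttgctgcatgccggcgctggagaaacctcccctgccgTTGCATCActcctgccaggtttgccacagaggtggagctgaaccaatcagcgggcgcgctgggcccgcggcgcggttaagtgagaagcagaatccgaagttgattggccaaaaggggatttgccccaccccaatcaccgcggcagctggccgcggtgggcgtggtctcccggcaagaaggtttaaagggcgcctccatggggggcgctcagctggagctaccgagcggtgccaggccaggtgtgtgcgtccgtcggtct
CEBPG: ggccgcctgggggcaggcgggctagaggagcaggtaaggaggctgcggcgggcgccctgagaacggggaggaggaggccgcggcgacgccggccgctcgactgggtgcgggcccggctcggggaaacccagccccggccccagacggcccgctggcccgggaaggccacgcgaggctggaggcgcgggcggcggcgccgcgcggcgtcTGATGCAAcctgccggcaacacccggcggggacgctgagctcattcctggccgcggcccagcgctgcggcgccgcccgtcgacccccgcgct
Of the 6 ATF4 targets with the core, 4 fell with ATRA in shEZH2 cells (median fold change -0.50), and of the 11 with a window but no core, 7 fell (median -0.67). A match is only a run of letters, and its absence says nothing of binding outside the window.

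Of the ER genes, 1 of 15 rose, which is near the background of 7.7%, and the difference between the ER genes and the ATF4 targets was not tested. CRELD2, an ER-resident protein with disulfide isomerase activity, was that gene, at 7.15, 7.53 and 7.85 in shEZH2+ATRA cells, against 6.70, 7.00 and 7.37 in shEZH2 cells. The groups overlapped (fold change 0.52, SE 0.12, limma adjusted p = 0.0020). HSPA5, the main Hsp70 chaperone of the ER, also known as BiP, had 12.13, 12.36 and 12.51 in shEZH2+ATRA cells, against 11.68, 12.05 and 12.38 in shEZH2 cells. Its fold change of 0.33 had an adjusted p of 0.031 and a fold of 1.26, under the threshold. PDIA4, a disulfide isomerase, was at 0.30 (adjusted p = 0.025) and HSP90B1, the ER form of Hsp90, at 0.19 (adjusted p = 0.010), each with a fold too small for a call. XBP1, the transcription factor of the IRE1 arm, was at -0.23 (adjusted p = 0.020, fold 1.17). PDIA6, SDF2L1, CALR, SEL1L, HYOU1 and DNAJC3 lay between 0.05 and 0.28. MANF, EDEM1, HERPUD1 and DNAJB9 lay between -0.33 and -0.08. The proteins of SEL1L, EDEM1 and HERPUD1 serve the removal of misfolded proteins, and those of DNAJC3 and DNAJB9 are J-domain partners of HSPA5. At an unadjusted p under 0.05, 7 ER genes were higher and 2 lower.

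The ER stress response element (CCAAT, 9 bases of any kind, CCACG) was present in 6 of 15 ER genes (40.0%), in 0 of 17 ATF4 targets and in 0.0916% of 27305 genes. The 6 were HSPA5, HSP90B1, CALR, PDIA6, CRELD2 and XBP1. Here too the genes were listed as known members of the response, so the excess over all genes can follow from that choice. Another motif, TGACGTGG, the core of the unfolded protein response element, was found in HYOU1 among the ER genes (6.67%), in no ATF4 target and in 0.927% of all genes. The windows of HSPA5 (chr9:125241294-125241593, minus strand), CRELD2 (chr22:49918384-49918683, plus strand) and HSP90B1 (chr12:103930160-103930459, plus strand) are shown as those of the main ER chaperone, of the ER gene that rose and of the gene with 2 copies, with the whole element in capitals. In CRELD2 it reads on the opposite strand, and HSP90B1 has 1 copy on each strand.
HSPA5: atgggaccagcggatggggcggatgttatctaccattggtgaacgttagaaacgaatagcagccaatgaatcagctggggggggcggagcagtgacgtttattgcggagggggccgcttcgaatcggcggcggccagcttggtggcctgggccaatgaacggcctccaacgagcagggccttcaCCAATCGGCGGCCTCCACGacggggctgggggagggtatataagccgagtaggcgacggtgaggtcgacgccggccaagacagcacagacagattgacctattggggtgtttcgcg
CRELD2: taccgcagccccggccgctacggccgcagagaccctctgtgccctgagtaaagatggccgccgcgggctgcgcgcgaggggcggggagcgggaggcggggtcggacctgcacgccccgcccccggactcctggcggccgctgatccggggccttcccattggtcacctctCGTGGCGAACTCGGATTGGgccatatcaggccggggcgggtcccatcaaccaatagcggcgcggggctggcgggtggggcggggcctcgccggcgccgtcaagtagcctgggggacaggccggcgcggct
HSP90B1: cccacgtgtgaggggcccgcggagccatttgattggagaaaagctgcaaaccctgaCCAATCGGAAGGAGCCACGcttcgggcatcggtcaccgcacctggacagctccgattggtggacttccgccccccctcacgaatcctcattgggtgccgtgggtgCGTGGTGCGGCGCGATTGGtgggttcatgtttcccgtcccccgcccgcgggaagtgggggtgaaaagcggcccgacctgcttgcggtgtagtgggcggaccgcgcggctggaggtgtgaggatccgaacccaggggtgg
Of the 6 ER genes with the element, 5 were positive with ATRA in shEZH2 cells (median 0.27), and of the other 9, 5 were positive (median 0.05).

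**Figure D2:**
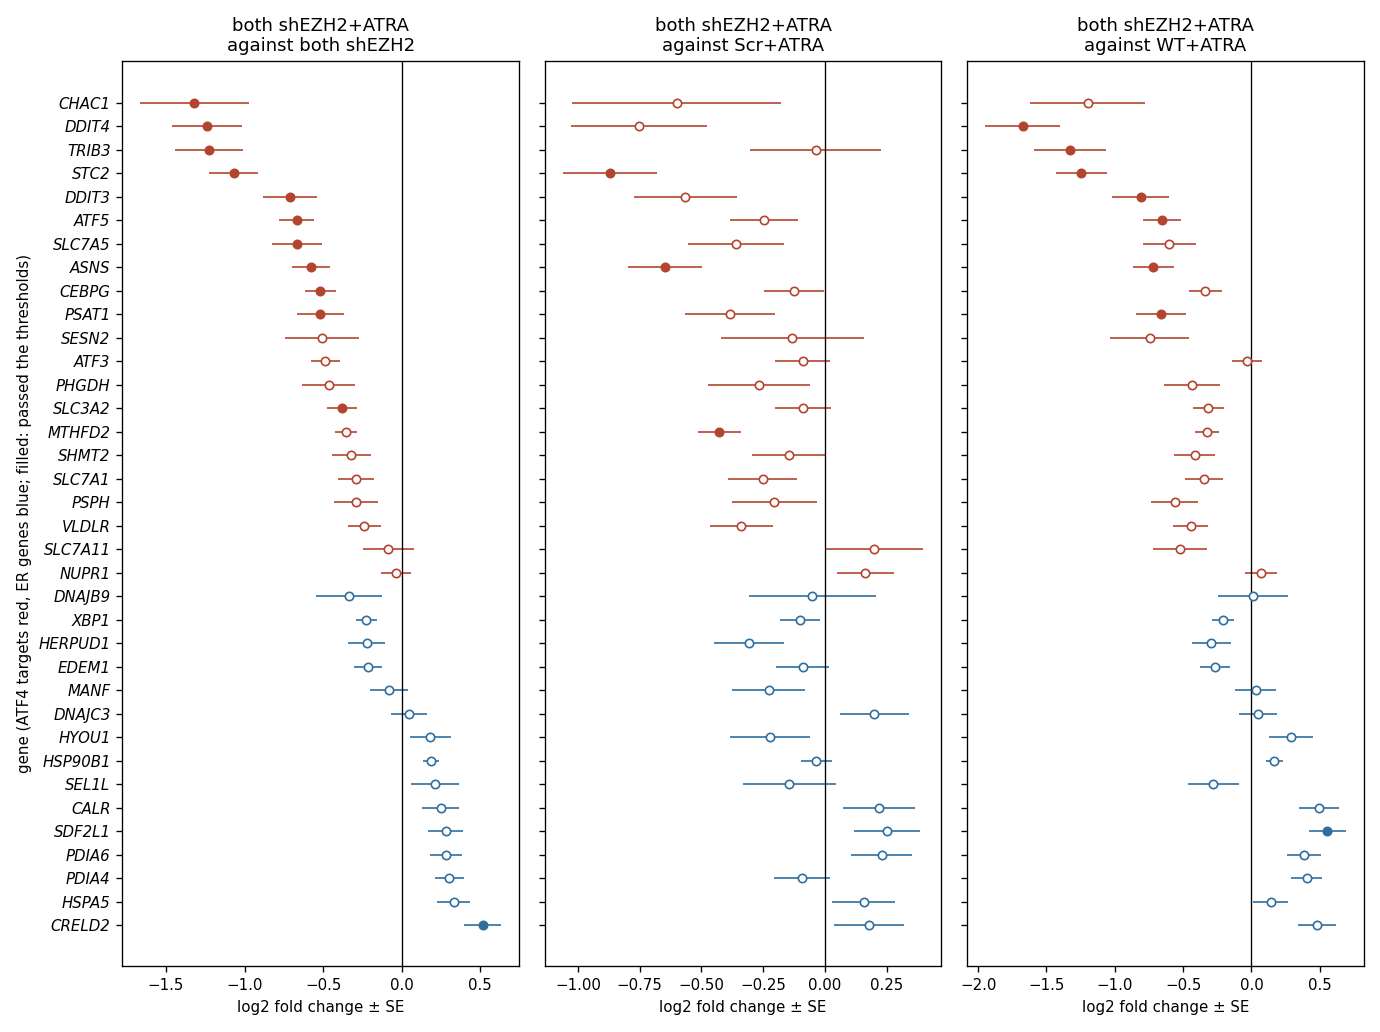
Log2 fold change with its standard error (horizontal axes) of the 36 genes (vertical axis, ATF4 targets red, ER genes blue, filled where called) in shEZH2+ATRA cells against shEZH2 cells, Scr+ATRA cells and WT+ATRA cells. ATF4 targets lie left of 0 in 21, 19 and 20 of 21 cases, and the medians of the ER genes are 0.19, -0.05 and 0.14.

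Each hairpin was then set against itself, a split chosen after the data were seen. With shEZH2#1, 11 ATF4 targets fell in shEZH2#1+ATRA cells against shEZH2#1 cells (3.75% of all genes fell), and CRELD2 rose by 0.59 (4.9% of all genes rose). STC2 was at 6.37, 6.50 and 5.97 in shEZH2#1+ATRA cells, against 7.53, 7.25 and 7.79 in shEZH2#1 cells (fold change -1.24, limma adjusted p = 0.00027). DDIT4 fell by 1.47, TRIB3 by 1.30 and DDIT3 by 1.04, all without overlap. With shEZH2#2, 3 ATF4 targets fell in shEZH2#2+ATRA cells against shEZH2#2 cells (3.92% of all genes fell), namely TRIB3 (-1.15), STC2 (-0.89) and ATF5 (-0.54), and no ER gene was called. In each hairpin 20 of 21 ATF4 targets were negative, with medians of -0.61 (shEZH2#1) and -0.39 (shEZH2#2). All 3 calls of shEZH2#2 were lost without shEZH2#2+ATRA replicate 1, without shEZH2#2+ATRA replicate 2 or without shEZH2#2 replicate 3, and those of TRIB3 or ATF5 also without shEZH2#2 replicates 1 or 2. With shEZH2#1, the calls of ATF5, TRIB3, DDIT4, ASNS and STC2 held without any 1 array, and those of the other 6 ATF4 targets and CRELD2 were each lost without at least 1 (shEZH2#1 or shEZH2#1+ATRA replicate 1, 2 or 3). The mean level of the 21 ATF4 targets was 8.87, 8.98 and 8.70 on the shEZH2#1+ATRA arrays, against 9.49, 9.34 and 9.74 on the shEZH2#1 arrays. It was 8.72, 8.76 and 9.16 on the shEZH2#2+ATRA arrays, against 9.36, 9.05 and 9.63 on the shEZH2#2 arrays, where replicate 2 had the lowest level of 14 of the 21 genes. CHAC1 had the same fold change of -1.32 with either hairpin and was called with neither (limma adjusted p = 0.13 each).

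**Figure D3:**
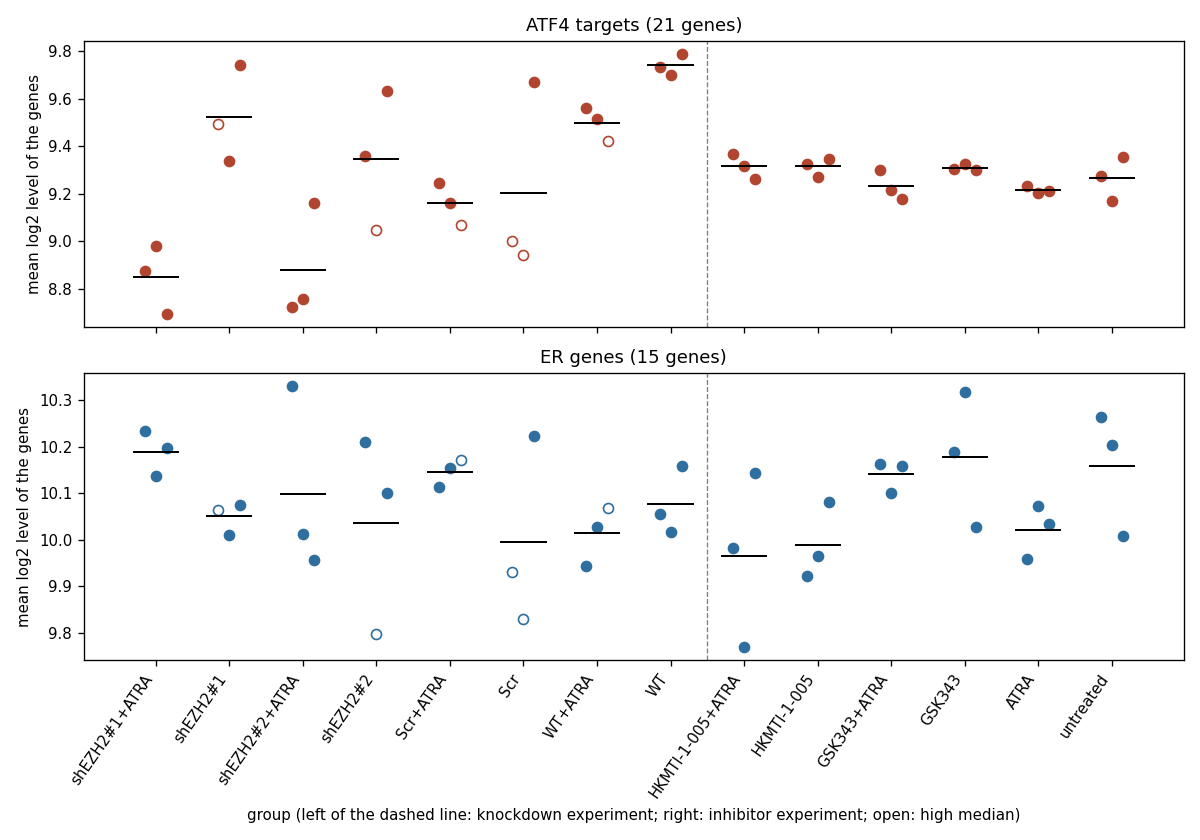
Mean log2 level of the 21 ATF4 targets (top) and the 15 ER genes (bottom) on each of the 42 arrays by group, with a bar at the group mean and open circles for the 6 arrays of high median. For the ATF4 targets the shEZH2+ATRA arrays lie at 8.70 to 9.16, the WT arrays at 9.70 to 9.79 and all 18 inhibitor arrays between 9.17 and 9.37.

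In the other cell states no member was called with ATRA. In ATRA against untreated cells, 2 members and 3575 of all 18417 genes had an unadjusted p under 0.05. None of the members passed limma's test there, where 13.1% of all genes were called. The same was found in HKMTI-1-005+ATRA against HKMTI-1-005 cells (4.05% of all genes, 3 members unadjusted), in GSK343+ATRA against GSK343 cells (10.4% of all genes, 3 members unadjusted), in WT+ATRA against WT cells (2.13% of all genes, 3 members unadjusted) and in Scr+ATRA against Scr cells (4.98% of all genes, 4 members unadjusted). The methods' t-test with Benjamini-Hochberg adjustment called no member in these 5 comparisons either. That test kept no limma call of a member in any comparison with only 3 arrays in a group, so that it adds no support here. The median of the ATF4 targets was -0.19 in WT+ATRA against WT cells, with 19 of 21 negative, and between -0.08 and 0.05 in the other 4. Leaving out Scr replicate 3 gave 2 called members in Scr+ATRA against Scr cells, and leaving out any other array of these 5 comparisons gave none.

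ATF5 showed the same direction in every setting. It was lower with ATRA in 7 of 7 comparisons on separate arrays (shEZH2#1, shEZH2#2, Scr, WT, HKMTI-1-005, GSK343 and no inhibitor), by -0.80 to -0.33, with no overlap in 7 of 7. Without hairpin or inhibitor it was at 10.26, 10.09 and 10.20 in ATRA cells, against 10.49, 10.52 and 10.62 in untreated cells. With Scr it was 10.22, 10.13 and 9.92 in Scr+ATRA cells, against 10.40, 10.34 and 11.07 in Scr cells. Only in shEZH2 cells did ATF5 pass the test, the limma adjusted p being 0.08 with Scr and 0.11 to 0.40 in the other 4 states. The ATF4 targets CEBPG, TRIB3, CHAC1 and PHGDH and the ER gene EDEM1, an ER lectin for misfolded glycoproteins, were also negative in all 7. HSPA5 (0.05 to 0.33) and HSP90B1 (0.00 to 0.22) were positive in all 7. Such a count does not use the size of the changes, and none of those outside shEZH2 cells was called. ATF5 was named after the values were seen, as the member with the most comparisons without overlap. CEBPG came next, with no overlap in 5 of 7. The share of all genes that reach the same counts was not determined. The counts therefore cannot show whether ATF5 or the other genes named here stand out from genes in general.

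**Figure D4:**
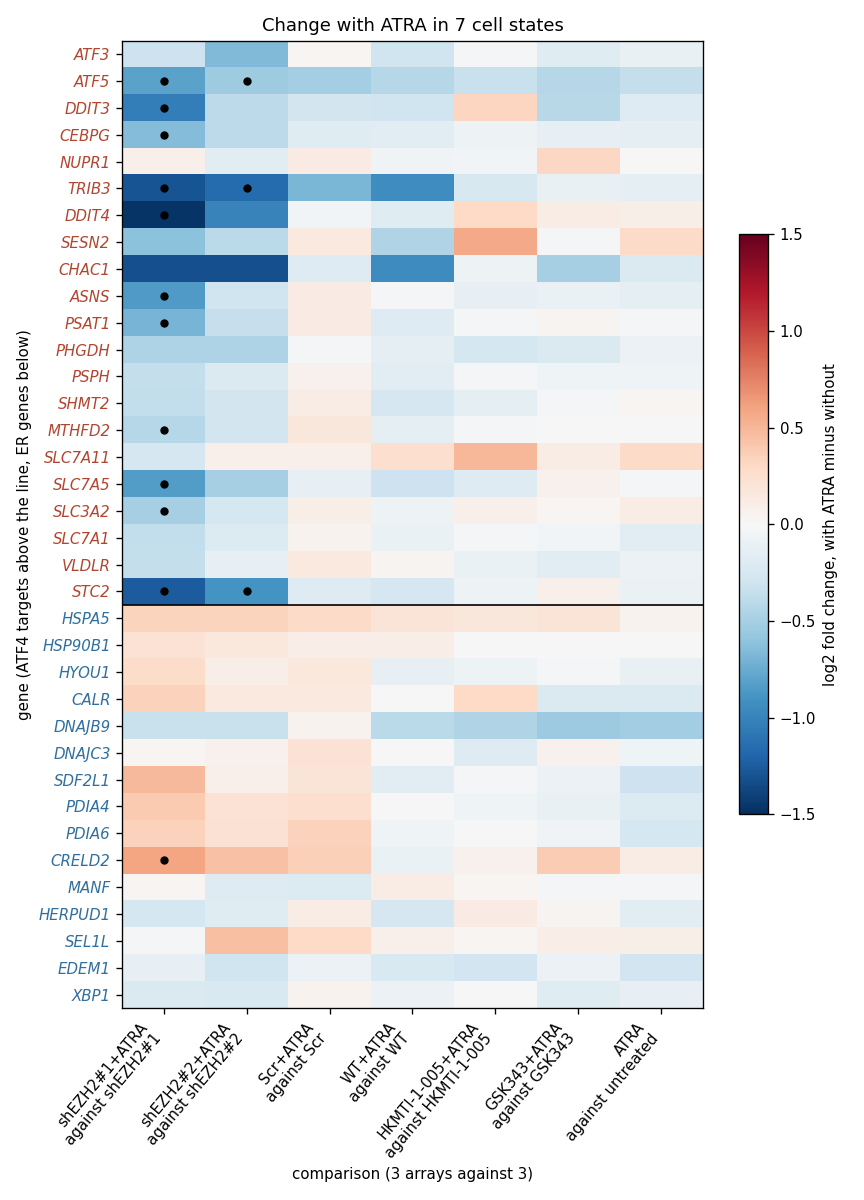
Log2 fold change with ATRA (colour, with ATRA minus without, from -1.5 in blue to 1.5 in red) of the 36 genes (vertical axis) in 7 cell states (horizontal axis, 3 arrays against 3 each), with a dot where the gene was called. Dots are confined to the shEZH2#1 column, with 12, and the shEZH2#2 column, with 3, and the ATF5 row is blue in all 7.

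The ATRA responses themselves were also set against each other. The response with both shEZH2 against the response with Scr had no called member (0.0814% of all genes were called, 9 members had an unadjusted p under 0.05), so that the response of shEZH2 cells was not shown to differ from that of Scr cells for any member. The difference in response was negative for 21 of 21 ATF4 targets, with a median of -0.47, and its limma adjusted p was lowest for MTHFD2 (-0.53, adjusted p = 0.10). DDIT4 (-1.19), STC2 (-0.88) and ASNS (-0.70) had the largest differences among those 9 members. Without Scr replicate 3, 6 members were called in this comparison, and over all alternatives the median ran from -0.64 to -0.21. No member and 0% of all genes were called for the response with Scr against that of WT (1 member unadjusted, and no called member without Scr replicate 3 either), for the response of the inhibitor experiment against that of WT (0 members unadjusted), for the response with HKMTI-1-005 against that without it (1 member unadjusted) or for the response with GSK343 against that without it (0 members unadjusted).

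Cells with ATRA were next compared between hairpins and controls. In both shEZH2+ATRA groups against WT+ATRA cells (6 arrays against 3), 7 ATF4 targets fell (1.68% of all genes fell) and 1 ER gene rose (1.6% of all genes rose). DDIT4 had a lowest, median and highest level of 7.26, 8.56 and 9.29 in shEZH2+ATRA cells, against 10.25, 9.70 and 10.37 on the WT+ATRA arrays (fold change -1.67, SE 0.27, 3.19-fold lower, limma adjusted p = 0.00047). TRIB3 had 7.46, 7.70 and 8.22 in shEZH2+ATRA cells, against 9.31, 9.01 and 8.95 in WT+ATRA cells (-1.33, SE 0.26, limma adjusted p = 0.0033). STC2 had 5.97, 6.24 and 7.14 in shEZH2+ATRA cells, against 7.53, 7.77 and 7.51 in WT+ATRA cells (-1.24, SE 0.19, limma adjusted p = 0.00017). None of these 3 genes overlapped between the groups. DDIT3 did overlap, with 6.84, 7.33 and 7.59 in shEZH2+ATRA cells, against 8.02, 7.56 and 8.73 in WT+ATRA cells (-0.81, limma adjusted p = 0.030). ASNS fell by 0.72 (0.0055), PSAT1 by 0.66 (0.045) and ATF5 by 0.65 (0.0059). SDF2L1, a cofactor of ER chaperones, was at 7.61, 7.14 and 7.56 in shEZH2#1+ATRA cells and 7.46, 7.11 and 7.13 in shEZH2#2+ATRA cells, against 6.58, 6.87 and 6.89 in WT+ATRA cells (0.56, SE 0.13, limma adjusted p = 0.019). With 1 fit per experiment, DDIT4, TRIB3 and STC2 were the members still called, and with median centring PSAT1 and SDF2L1 were lost. Leaving out 1 array gave 5 called members without shEZH2#2+ATRA replicate 1 and 12 without shEZH2#2+ATRA replicate 3. The calls of DDIT3, PSAT1 and SDF2L1 were each lost without shEZH2#2+ATRA replicate 1 or WT+ATRA replicates 1 or 3, and those of DDIT3 or PSAT1 or SDF2L1 also without shEZH2#1+ATRA replicate 1, 2 or 3, shEZH2#2+ATRA replicate 2 or WT+ATRA replicate 2.

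Fewer members passed against the hairpin control. In both shEZH2+ATRA groups against Scr+ATRA cells, 3 ATF4 targets fell, where 1.98% of all genes fell, and 19 of 21 were negative (median -0.25). MTHFD2 was at 11.83, 11.81 and 11.62 in shEZH2#1+ATRA cells and 11.71, 11.82 and 12.03 in shEZH2#2+ATRA cells, against 12.23, 12.22 and 12.24 in Scr+ATRA cells, without overlap (fold change -0.43, SE 0.086, limma adjusted p = 0.0034). That call was lost with each array centred on its median (-0.38, limma adjusted p = 0.063). ASNS was at 9.84, 10.00 and 9.16 in shEZH2#1+ATRA cells and 9.58, 10.17 and 10.53 in shEZH2#2+ATRA cells, against 10.64, 10.48 and 10.46 in Scr+ATRA cells, so that shEZH2#2+ATRA replicate 3 reached the Scr+ATRA level (-0.65, limma adjusted p = 0.011). STC2 was at 6.37, 6.50 and 5.97 in shEZH2#1+ATRA cells and 6.07, 6.11 and 7.14 in shEZH2#2+ATRA cells, against 7.36, 6.97 and 7.36 in Scr+ATRA cells, with the same shEZH2#2+ATRA array in the overlap (-0.87, limma adjusted p = 0.0070). The call of ASNS was lost without Scr+ATRA replicate 1, that of STC2 without Scr+ATRA replicate 3, and both with 1 fit per experiment. TRIB3 did not separate here, at -0.04 (95% interval -0.57 to 0.50), with Scr+ATRA cells at 8.01, 7.85 and 7.53. The same 3 genes fell in shEZH2#1+ATRA against Scr+ATRA cells (1.66% of all genes fell), namely STC2 (-0.95), ASNS (-0.86) and MTHFD2 (-0.48). In this comparison ASNS was lost without shEZH2#1+ATRA replicate 3, and STC2 without that array, Scr+ATRA replicate 1 or Scr+ATRA replicate 3, and MTHFD2 with median centring (limma adjusted p = 0.084) or 1 fit per experiment (0.051). In shEZH2#2+ATRA against Scr+ATRA cells no member was called by limma (2.1% of all genes were called, 7 members had an unadjusted p under 0.05), but 1 was without Scr+ATRA replicate 2 and 4 were without shEZH2#2+ATRA replicate 3, and in shEZH2#1+ATRA against shEZH2#2+ATRA cells none was either (0.448% of all genes, 2 members unadjusted).

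Without ATRA, no member was called for both hairpins together. In both shEZH2 groups against Scr cells none passed limma's test (6.12% of all genes were called), 8 had an unadjusted p under 0.05, and ATF3 was at 0.43 with an adjusted p of 0.027, below the expression filter. The median of the ATF4 targets was 0.22. Without Scr replicate 3, 9 members were called. Without the 6 arrays of high median, which left Scr replicate 3 as the only Scr array, the median turned to -0.12. In both shEZH2 groups against WT cells no member was called by limma either (0.407% of all genes, 10 members unadjusted, all lower). TRIB3 had the largest difference there, at -1.04 (adjusted p = 0.072), and 1 member was called without shEZH2#2 replicate 3. The methods' t-test with Benjamini-Hochberg adjustment called no member in these 2 comparisons, under the same limit of a group of 3 arrays. In shEZH2#1 against Scr cells, SLC3A2 rose (5.17% of all genes rose), with 10.79, 10.87 and 10.77 in shEZH2#1 cells, against 10.20, 10.04 and 10.75 in Scr cells (fold change 0.48, limma adjusted p = 0.036). This call was lost without any 1 of the 3 shEZH2#1 arrays and without Scr replicates 1 or 2, whereas 11 members were called without Scr replicate 3 (10 higher, 1 lower). No member was called by limma in shEZH2#2 against Scr cells (2.46% of all genes, 4 members unadjusted), where 5 were called without Scr replicate 3, or in shEZH2#1 against shEZH2#2 cells (0.502% of all genes, 4 members unadjusted).

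In Scr against WT cells, 4 of 21 ATF4 targets fell, a share near the 18.4% of all genes that fell, and the ER gene MANF rose, where 3.16% of all genes rose. TRIB3 was at 8.00, 7.90 and 9.55 in Scr cells, against 10.35, 9.66 and 10.07 in WT cells (fold change -1.55, SE 0.30, limma adjusted p = 0.0021). SESN2, which reports leucine to mTORC1, was at 6.06, 5.87 and 7.81 in Scr cells, against 7.84, 7.73 and 7.81 in WT cells (-1.21, adjusted p = 0.018). DDIT4 was at 8.77, 9.12 and 9.81 in Scr cells, against 10.52, 10.12 and 10.24 in WT cells (-1.06, limma adjusted p = 0.027). In each of these 3 genes Scr replicate 3 lay nearer to WT than the other Scr arrays did, and SESN2 overlapped. SHMT2 had 11.06, 10.99 and 11.88 in Scr cells, against 11.89, 11.99 and 11.94 in WT cells (-0.63, limma adjusted p = 0.018). MANF, a secreted ER stress protein, had 9.50, 9.54 and 8.92 in Scr cells, against 8.81, 8.61 and 8.82 in WT cells (0.57, limma adjusted p = 0.027). CHAC1 had a fold change of -1.35 (limma adjusted p = 0.064), with 7.94, 7.39 and 9.67 in Scr cells, against 9.86, 9.56 and 9.64 in WT cells. Over the list, 21 of 21 ATF4 targets were negative (median -0.38, and -0.43 for those expressed highly enough to be called), where the median of all genes that could be called was itself -0.20. Scr replicate 3 was the highest of the 3 Scr arrays for 19 of the 21. The count of called members was 19 without Scr replicate 3 and 1 without Scr replicate 1, Scr replicate 2 or WT replicate 1. The 6 arrays of high median include Scr replicates 1 and 2. Without them Scr replicate 3 is the only Scr array left, so no count is given. In Scr+ATRA against WT+ATRA cells, TRIB3 fell (0.733% of all genes fell), with 8.01, 7.85 and 7.53 in Scr+ATRA cells, against 9.31, 9.01 and 8.95 in WT+ATRA cells (-1.29, limma adjusted p = 0.037). The groups did not overlap, but the call was lost with median centring, with 1 fit per experiment and without any 1 of the 6 arrays, which were Scr+ATRA replicates 1, 2 and 3 and WT+ATRA replicates 1, 2 and 3.

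No member was called with either inhibitor. None passed limma's test in HKMTI-1-005 against untreated cells (0.217% of all genes, 0 members unadjusted), in GSK343 against untreated cells (0.0136% of all genes, 1 member unadjusted), in HKMTI-1-005+ATRA against ATRA cells (0.76% of all genes, 3 members unadjusted) or in GSK343+ATRA against ATRA cells (0.0136% of all genes, 0 members unadjusted). In that order, 982, 745, 2042 and 631 of all 18417 genes had an unadjusted p under 0.05. The methods' t-test with Benjamini-Hochberg adjustment called no member in any comparison of the inhibitor experiment, but with 3 arrays a group it adds no support. The median of the ATF4 targets lay between 0.02 and 0.07 in these 4 comparisons. In HKMTI-1-005 against untreated cells 14 of 15 ER genes were negative (median -0.17), as were 9275 of all 18417 genes. In GSK343+ATRA against ATRA cells 14 of 15 were positive (median 0.13), as were 9903 of all 18417 genes. None of the ER genes was called, and all were read on the same arrays, so that a count of signs is no test. PSPH, the last enzyme of serine synthesis, was at 9.06, 8.91 and 8.63 in HKMTI-1-005+ATRA cells, against 8.25, 8.52 and 8.48 in ATRA cells, without overlap (0.45, limma adjusted p = 0.38).

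Set side by side, with HKMTI-1-005 at 2.5 µM and GSK343 at 10 µM, the inhibitors gave no called member either, and the unequal doses limit what the pair can show. In HKMTI-1-005+ATRA against GSK343+ATRA cells, 6 members had an unadjusted p under 0.05, a looser rule than that by which 1.07% of all genes were called. DDIT3 was at 8.55, 8.22 and 7.97 in HKMTI-1-005+ATRA cells, against 7.47, 7.76 and 7.25 in GSK343+ATRA cells, without overlap (0.75, 95% interval 0.26 to 1.24, limma adjusted p = 0.16). CRELD2 was at 7.08, 6.81 and 7.15 in HKMTI-1-005+ATRA cells, against 7.63, 7.45 and 7.50 in GSK343+ATRA cells (-0.51, 95% interval -0.85 to -0.18, limma adjusted p = 0.15). In HKMTI-1-005 against GSK343 cells without ATRA, 7 members had an unadjusted p under 0.05, while 0.394% of all genes were called by the stricter rule. HYOU1, a large chaperone of the ER, was at 9.65, 9.38 and 9.87 in HKMTI-1-005 cells, against 10.18, 10.22 and 9.84 in GSK343 cells (-0.45, 95% interval -0.83 to -0.07, limma adjusted p = 0.63). Of the 15 ER genes, 11 were negative with ATRA (median -0.17) and 12 without it (median -0.19). PSPH was the 1 ATF4 target with an unadjusted p under 0.05 in both, at 0.54 (95% interval 0.13 to 0.94) with ATRA and 0.49 (0.08 to 0.89) without it. For CHAC1 the interval without ATRA ran from -0.89 to 1.10, so that differences of about that size would not have been detectable here.

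**Figure D5:**
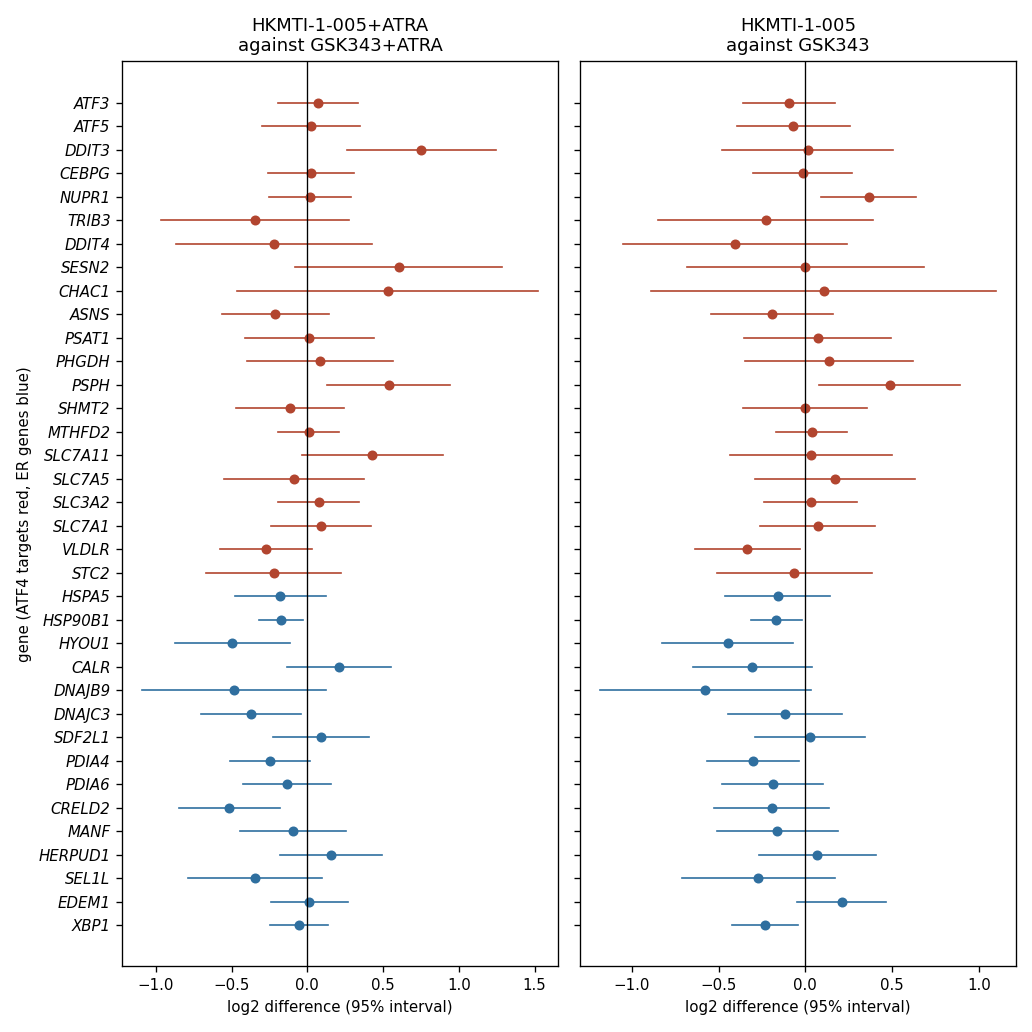
Log2 difference of HKMTI-1-005 minus GSK343 with its 95% interval (horizontal axes), with ATRA (left) and without it (right), for the 36 genes (vertical axis, ATF4 targets red, ER genes blue). No gene was called, and the ER genes lie left of 0 in 11 and 12 of 15 cases.

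The members also differed in how much they varied. The group mean of CHAC1 ranged over 2.32 across the 14 groups, TRIB3 over 2.30, DDIT4 over 2.12 and STC2 over 1.58. The median range was 0.95 for the ATF4 targets and 0.57 for the ER genes, against 0.56 for all genes that could be called. The lowest of the 14 group means was in a shEZH2+ATRA group for 19 of 21 ATF4 targets and for 3 of 15 ER genes, and the highest was in WT cells for 15 of 21 and for 2 of 15. Spread within groups was larger too. The median SD within groups was 0.254 for the ATF4 targets and 0.205 for the ER genes, against 0.193 for all genes that could be called. CHAC1 had the highest SD of the list (0.63) and HSP90B1 the lowest (0.082), which bears on how small a change each could show.

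Of 70 further genes of these pathways, 63 were expressed highly enough to be called. In both shEZH2+ATRA groups against both shEZH2 groups, 11 of them fell and 1 rose, where 6.35% of all genes fell and 7.7% rose. The largest falls were in CTH of cysteine synthesis (-1.20), SARS1, the seryl-tRNA synthetase (-0.65), PPP1R15A, the phosphatase subunit GADD34 that reverses eIF2α phosphorylation (-0.57), and SLC6A9, a glycine transporter (-0.56). OS9, an ER lectin, rose by 0.60. Of the 12 cytosolic tRNA synthetases 11 were negative and 2 were called. ATF4 mRNA itself was at -0.28 (limma adjusted p = 0.0016), a fold under 1.3, and none of the 4 kinases of eIF2α (EIF2AK1 to EIF2AK4) was called. Against WT+ATRA cells 8 fell (1.68% of all genes fell), with CTH (-1.22), SARS1 (-1.01), SLC6A9 (-0.99) and PCK2 (-0.83) as the largest. Against Scr+ATRA cells 4 fell (1.98% of all genes fell), which were ALDH1L2 (-0.80), PCK2 (-0.76), SARS1 (-0.60) and MTHFD1L (-0.41). OS9 rose in both, by 0.50 and 0.44.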

How the data were processed

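The deposited table holds 33297 probe sets on 42 arrays. Its log2 values come from GC-RMA in Partek, followed by the authors' removal of batch and date effects. The sources used here give neither the versions nor the batches and dates, so no fit had a batch term and the effect of that removal was not tested. The log2 scale was read from the values (3.18 to 14.5, median 5.40). Probe sets with 1 symbol (19460) were kept and those with several (1754) or none (12083) left out. The probe set of highest mean stood for each gene. Array values give no counts, so 3 arrays a group limit the precision.

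Group means of all 14 groups were fitted with limma 3.58.1 in R 4.3.3 (residual degrees of freedom 28, prior 3.37). Adjustment was by Benjamini-Hochberg over 18417 genes. Thresholds followed the study's methods, and the lowest mean among the 7367 genes was 6.88. Both shEZH2 means the average of the hairpins. The fit was tested on simulated data. Values per array are given for up to 4 called members of largest change per comparison and direction, and others named were chosen after their values were seen. The members and lists were chosen with earlier results of these data known. Alternatives changed the scaling, filter, fold, probe set, samples in the fit, replicate block, variance model, test and arrays. Deviations of same-numbered arrays correlated at 0.033 (inhibitor) and -0.014 (knockdown) on average. Since the authors had already removed batch and date effects, these values cannot show whether the arrays were paired. Protein sequences were not used here.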

Additional observations from a re-analysis of the deposited data

How the results depend on the processing

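The fall of ATF4 targets with ATRA in shEZH2 cells kept its direction under every alternative run (median -0.57 to -0.41), and the median of the ER genes stayed positive (0.10 to 0.24). With both shEZH2+ATRA against both shEZH2, the methods' t-test after Benjamini-Hochberg left 3 of 12 called members (ATF5, STC2, TRIB3), and it left 0 against Scr+ATRA, 0 against WT+ATRA, 0 for Scr against WT and 0 for Scr+ATRA against WT+ATRA. At an unadjusted p, the same t-test called 17 members in both shEZH2+ATRA against WT+ATRA, 5 in Scr+ATRA against WT+ATRA, 4 in HKMTI-1-005+ATRA against GSK343+ATRA, 3 in GSK343+ATRA against GSK343, 3 in Scr against WT, 2 in WT+ATRA against WT, 2 in both shEZH2 against WT and 1 each in HKMTI-1-005 against untreated, HKMTI-1-005+ATRA against ATRA and HKMTI-1-005 against GSK343. With 1 fit per experiment, both shEZH2+ATRA had 1 called member against Scr+ATRA and 3 against WT+ATRA, Scr against WT had 1, Scr+ATRA against WT+ATRA had 0, HKMTI-1-005+ATRA against HKMTI-1-005 had 1, GSK343+ATRA against GSK343 had 2 and HKMTI-1-005+ATRA against GSK343+ATRA had 2. Quantile normalization gave 1 in Scr+ATRA against Scr and 2 in Scr+ATRA against WT+ATRA. Median centring gave 14 in Scr against WT, where it moved the median of all genes to -0.17, with 1 in both shEZH2 against Scr and 0 in Scr+ATRA against WT+ATRA. Without the expression filter, both shEZH2 against Scr had 1. Without the 6 arrays of high median there were 13 in both shEZH2+ATRA against WT+ATRA, 2 in Scr+ATRA against WT+ATRA and 1 in both shEZH2 against WT. Scr replicate 3 was then the only Scr array, and SESN2 in Scr against WT turned to 0.024. The replicate block gave 1 called member in both shEZH2 against WT and moved no other of these counts by over 1.5 times, but ended the calls of PSAT1 in both shEZH2+ATRA against WT+ATRA (limma adjusted p = 0.056) and in shEZH2#1+ATRA against shEZH2#1 (0.056) and of ATF5 in shEZH2#2+ATRA against shEZH2#2 (0.053). The numbers share no known source. After the authors' batch removal, 9 of 18 inhibitor arrays and 6 of 24 knockdown arrays correlated best with their own number, which does not settle the pairing. Leaving out 1 array at a time gave 5 to 12 called members in both shEZH2+ATRA against WT+ATRA, 1 to 19 in Scr against WT, 0 to 1 in Scr+ATRA against WT+ATRA, 0 to 2 in Scr+ATRA against Scr, 0 to 9 in both shEZH2 against Scr, 0 to 1 in both shEZH2 against WT and 0 to 6 in the ATRA response with both shEZH2 against that with Scr. The causes were not tested. ATF3 and NUPR1 lay below the expression filter, and CHAC1, of wide spread, needed a larger change for a call.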

Other observations

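Among the 70 further pathway genes, 8 of the 63 expressed highly enough to be called fell in Scr against WT cells, where 18.4% of all genes fell, with PPP1R15A (-1.13), CTH (-1.09) and DERL1, a protein of the ER degradation channel (-1.07), as the largest, and these rest on the same Scr arrays as the members. PPP1R15A rose by 0.83 in both shEZH2 against Scr cells (limma adjusted p = 0.012). In ATRA against untreated cells, 3 of the 70 genes rose and 4 fell, where 13.1% of all genes were called. In GSK343+ATRA against GSK343 cells 1 fell (10.4% of all genes were called). It was PYCR1, the last enzyme of proline synthesis (-0.74, limma adjusted p = 0.025). In HKMTI-1-005+ATRA against HKMTI-1-005 cells 1 fell (4.05% of all genes were called). It was EIF4EBP1, an inhibitor of translation (-0.50, limma adjusted p = 0.048). PSPH has 2 probe sets, which were -0.29 (the one used) and -0.62 in both shEZH2+ATRA against both shEZH2 cells.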
